A study of Mus musculus with 16 samples.

Results

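Cytochrome P450 genes encode haem enzymes that add oxygen to sterols, bile acid precursors, retinoids, fatty acids and foreign compounds. In the liver most members are known from hepatocytes, where the families 1, 2, 3 and 4 handle drugs and fats and a few sterol hydroxylases make bile acids. Other members are known outside hepatocytes, among them the retinoic acid hydroxylase Cyp26b1 and the leukotriene hydroxylase Cyp4f18. Microsomal members draw electrons from the reductase Por, and mitochondrial members such as Cyp27a1 draw them from ferredoxin.

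The members were the protein-coding genes of the deposited count table whose symbol is Cyp, a number, a letter or letters and a number, with 1 closing letter allowed. There were 99 such genes among 48795 gene rows, 94 without and 5 with a closing letter, and symbols of another form (Cyp51, Tbxas1, Ptgis) were not counted as members. They lay on 15 chromosomes, with 19 on chromosome 4, 18 on chromosome 19, 15 on chromosome 7, 11 on chromosome 17, and 10 each on chromosomes 5 and 15. The Cyp2c, Cyp2d, Cyp3a and Cyp4a genes form clusters of near copies. Of the 99 members, 16 had no count in any library, 17 had 1 to 99 counts over all libraries, and 67 passed the filter on low counts and were tested. At least 1 count in every library was seen for 29 members, and 54 to 70 members were seen per library.

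The 16 RNA-seq libraries came from sorted liver cells of mice aged 4 weeks, with RNA of 6 to 8 mice of both sexes pooled per library. They covered DBA-sorted cells (labelled cholangiocytes, the lining cells of bile ducts, sorted with the lectin DBA), Ly6Chi and Ly6Clo infiltrating macrophages, and neutrophils. Each population was taken from wild-type C57BL/6, Ift88Orpk C57BL/6, wild-type BALB/c and Ift88Orpk BALB/c mice, with 1 library per combination. Ift88Orpk is a hypomorphic allele of Ift88, a gene needed to build primary cilia, and is carried by all cells of the mouse. The 4 libraries of a population were used as its replicates although they differ in strain and genotype, so p-values measure the spread between these pooled libraries and not between mice.

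Gene counts ranged from 10170795 to 26093556 per library. A floor of 3 counts stood at 0.0926 to 0.377 CPM (counts scaled to a common library size), and CPM is the unit of all levels below. Ift88 itself was at 8.86 and 8.67 CPM in wild-type and 7.69 and 4.66 CPM in Ift88Orpk DBA-sorted cells, and at 1.43 to 8.81 CPM in the other 12 libraries. The labels were checked against marker genes. All 12 cholangiocyte markers were counted in all 4 DBA-sorted libraries, with a summed level of 750 to 1385 CPM against 22.3 to 115 CPM in the other populations. The same DBA-sorted libraries held 15082 to 25063 CPM of 11 sinusoidal endothelial markers. They also held 1919 to 9896 CPM of 12 stellate cell and fibroblast markers, and the cells are called DBA-sorted here. The 10 Ly6Chi monocyte markers summed to 6626 to 8936 CPM in the Ly6Chi libraries and to at most 5957 CPM elsewhere. The 10 Ly6Clo monocyte markers did not set the Ly6Clo libraries apart. They summed to 3290 to 5088 CPM there, 3364 to 4748 CPM in Ly6Chi and 3655 to 6456 CPM in neutrophils. The Ly6Clo libraries also averaged 863 CPM of T and NK cell markers and 591 CPM of dendritic cell markers. Means elsewhere were 23.9 to 84.7 CPM and 73.9 to 256 CPM. The 12 neutrophil markers summed to 20215 to 31351 CPM in the neutrophils and to at most 1957 CPM elsewhere. The 12 hepatocyte markers, led by Alb, summed to 467 to 5165 CPM over the 16 libraries, and 11 of the 12 were counted in every library. In pooled bulk RNA, fewer cells of a type and less RNA per cell cannot be told apart.

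These promoters are shown because their genes had clear population patterns: Cyp4f16, Cyp4f37 and Cyp2ab1 (highest in macrophages), Cyp4f18 (highest in neutrophils) and Cyp26b1 (highest in DBA-sorted cells), with Cyp1a1 for its difference between strains. Each window runs from 250 bases before to 50 bases after the RefSeq start site (GRCm38.p6), 5′ to 3′ on the gene's strand. Capitals mark GGAAGTG, a motif of ETS factors, in Cyp4f16, Cyp4f37 and Cyp2ab1. In Cyp26b1 they mark TATAAA, the letters of a core promoter element, at -139 from the start site. The Cyp4f18 window, searched for GGAAGTG, did not hold it and has no capitals. In Cyp1a1 they mark TATAAA and GCGTG, the core of the Ahr site. AGGTCA, a nuclear receptor half-site, was also searched and was in neither the Cyp26b1 nor the Cyp4b1 window. The windows lie at chr17:32536307-32536606 (plus strand), chr17:32621069-32621368 (plus), chr16:20325355-20325654 (minus), chr8:72009577-72009876 (minus), chr6:84593761-84594060 (minus) and chr9:57697363-57697662 (plus), in the order printed.
Cyp4f16: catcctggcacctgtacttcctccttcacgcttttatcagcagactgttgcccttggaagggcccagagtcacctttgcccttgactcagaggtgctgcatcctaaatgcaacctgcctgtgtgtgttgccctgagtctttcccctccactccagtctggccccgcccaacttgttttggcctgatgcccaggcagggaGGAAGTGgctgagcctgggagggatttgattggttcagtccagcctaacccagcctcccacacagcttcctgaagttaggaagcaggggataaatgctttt
Cyp4f37: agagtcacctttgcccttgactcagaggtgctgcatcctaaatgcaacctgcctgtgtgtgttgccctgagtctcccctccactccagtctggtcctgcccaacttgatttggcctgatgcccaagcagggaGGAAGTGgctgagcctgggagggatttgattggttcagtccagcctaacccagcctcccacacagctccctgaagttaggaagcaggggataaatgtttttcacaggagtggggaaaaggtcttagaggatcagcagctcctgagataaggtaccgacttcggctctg
Cyp2ab1: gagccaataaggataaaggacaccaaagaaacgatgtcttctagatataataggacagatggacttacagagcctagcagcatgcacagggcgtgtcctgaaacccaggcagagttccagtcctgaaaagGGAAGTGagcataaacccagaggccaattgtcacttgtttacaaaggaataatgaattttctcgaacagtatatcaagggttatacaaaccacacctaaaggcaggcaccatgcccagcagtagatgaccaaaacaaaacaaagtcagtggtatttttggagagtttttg
Cyp4f18: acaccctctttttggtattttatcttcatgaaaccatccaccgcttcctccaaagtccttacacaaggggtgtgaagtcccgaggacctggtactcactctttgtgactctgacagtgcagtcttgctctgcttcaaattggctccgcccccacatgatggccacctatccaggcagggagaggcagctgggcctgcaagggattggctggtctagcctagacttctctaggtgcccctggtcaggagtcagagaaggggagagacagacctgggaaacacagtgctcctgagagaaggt
Cyp26b1: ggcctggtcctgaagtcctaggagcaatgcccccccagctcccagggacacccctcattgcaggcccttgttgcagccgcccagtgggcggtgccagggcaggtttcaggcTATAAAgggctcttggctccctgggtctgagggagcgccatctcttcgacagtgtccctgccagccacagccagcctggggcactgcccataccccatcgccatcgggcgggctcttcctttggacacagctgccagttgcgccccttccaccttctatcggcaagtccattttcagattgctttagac
Cyp1a1: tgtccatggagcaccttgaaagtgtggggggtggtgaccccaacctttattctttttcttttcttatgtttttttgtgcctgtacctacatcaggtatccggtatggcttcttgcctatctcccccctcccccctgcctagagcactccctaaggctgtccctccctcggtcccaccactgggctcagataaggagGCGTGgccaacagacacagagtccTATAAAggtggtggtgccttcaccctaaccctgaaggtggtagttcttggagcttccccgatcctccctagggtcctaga

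The Cyp4f16 and Cyp4f37 windows aligned over 233 bases, of which 227 were identical, and both held GGAAGTG, first base at -51 and -118 from the start site. Cyp2ab1, on another chromosome, held it at -120. Like that of Cyp4f18, the Cyp27a1, Cyp4v3, Cyp4f13, Cyp4f14 and Cyp4f15 windows did not hold these letters. On either strand GGAAGTG was in 11% of all 32851 RefSeq windows of this length and in 6.98% of the 86 windows of 76 members. AGGTCA was in 16.3% of all windows and 25.6% of member windows, GCGTG in 32.4% and 19.8%, and TATAAA in 13.6% and 39.5%. Cyp1a1 held GCGTG at -54 and TATAAA at -30, and Cyp26b1 held TATAAA at -139. The motifs were chosen after the windows and the levels had been seen, and a match is a description only.

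**Figure D1:**
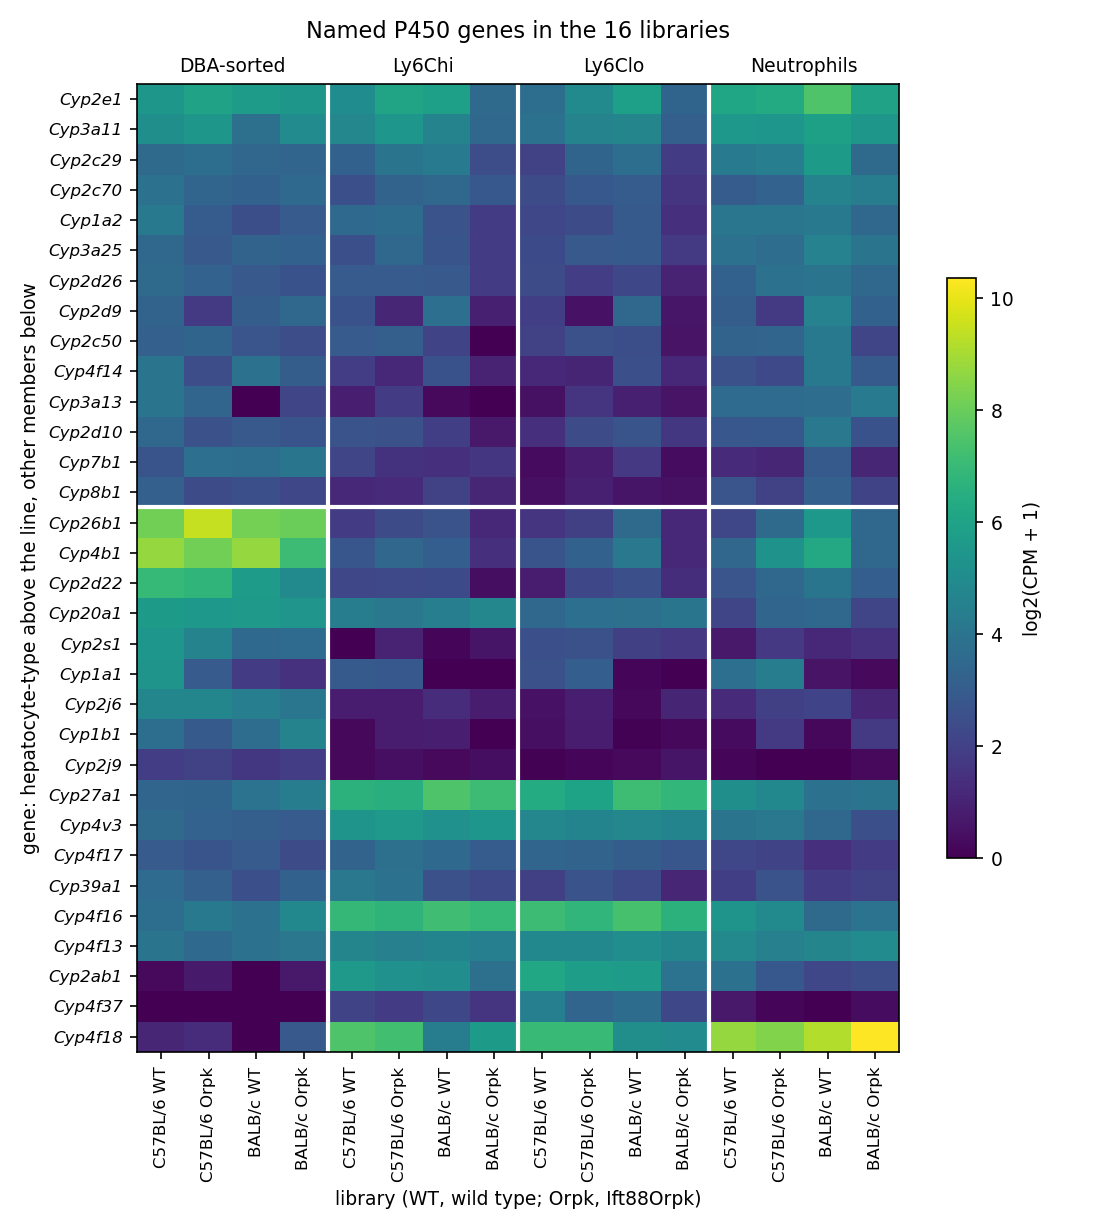
Heat map of log2(CPM + 1) for the 32 named members (rows) in the 16 libraries (columns, grouped by population). Members known from hepatocytes stand above the white line and are present in all 4 populations, while the members below it differ by population: Cyp26b1 and Cyp4b1 are highest in the DBA-sorted cells, Cyp4f18 in neutrophils, and Cyp27a1 and Cyp4f16 in macrophages.

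The level of a member per kilobase of exon gave the order within each population. In the DBA-sorted cells it was led by Cyp4b1 (mean 140 CPM per kb), Cyp26b1 (72.0), Cyp2e1 (23.3), Cyp2d22 (19.8) and Cyp20a1 (19.8). In Ly6Chi macrophages the order was Cyp27a1 (58.4 CPM per kb), Cyp4f18 (53.7), Cyp4f16 (40.0), Cyp2e1 (19.2) and Cyp4v3 (11). In Ly6Clo macrophages it was Cyp27a1 (46.1 CPM per kb), Cyp4f18 (43.5), Cyp4f16 (41.5), Cyp2ab1 (15.3) and Cyp2e1 (12.5). In neutrophils Cyp4f18 stood at 359 CPM per kb, ahead of Cyp2e1 (45.2), Cyp4b1 (14.9), Cyp27a1 (10.4) and Cyp3a11 (9.38). All members together made up 838 to 1540 CPM of a DBA-sorted library, 493 to 773 CPM of a Ly6Chi, 392 to 717 CPM of a Ly6Clo and 867 to 1711 CPM of a neutrophil library. The 5 most counted members held 59.0 to 86.3% of a library's member reads.

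A list of 52 P450 genes known from hepatocytes held 51 of the members, 47 of them with at least 1 count and 41 of them tested. Of these genes, 17 were counted in every library, those of the sorted leukocytes included, while others had no count in some populations. Cyp2e1, which oxidises ethanol and acetaminophen, was at 43.7, 62.5, 50.9 and 44.2 CPM in the DBA-sorted cells (C57BL/6 wild type, C57BL/6 Ift88Orpk, BALB/c wild type and BALB/c Ift88Orpk, the order used for every set of 4 values). It was at 32.3, 64.8, 57.2 and 11.2 CPM in Ly6Chi macrophages, 12.5, 29.4, 57.2 and 9.17 CPM in Ly6Clo macrophages, and 69.0, 79.9, 180 and 61.3 CPM in neutrophils. All groups overlapped except that the neutrophil libraries all lay above the Ly6Clo libraries.

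Cyp3a11, the main drug-oxidising Cyp3a enzyme of mouse liver, showed the same order of means. It was at 34.8, 44.3, 13.4 and 30.8 CPM in DBA-sorted cells, 27.0, 42.8, 23.6 and 10.4 CPM in Ly6Chi macrophages, 13.8, 24.0, 25.2 and 7.84 CPM in Ly6Clo macrophages, and 45.6, 43.0, 58.2 and 44.2 CPM in neutrophils. The neutrophil libraries lay above all 8 macrophage libraries. Cyp2c29, a drug-oxidising Cyp2c enzyme of mouse liver, was at 9.42 to 12.4 CPM in DBA-sorted cells, 4.40 to 17.8 CPM in Ly6Chi, 2.63 to 12.3 CPM in Ly6Clo and 11 to 49.8 CPM in neutrophils. Cyp1a2, the constitutive hepatic family 1 enzyme, was at 4.61 to 17.4, 2.61 to 11.6, 1.68 to 6.67 and 10.3 to 17.4 CPM in the same order.

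In the population fit (edgeR's quasi-likelihood test with Benjamini-Hochberg adjustment over 19183 genes, which also gives every adjusted p below unless another is named), hepatocyte-type members that differed between neutrophils and macrophages were higher in neutrophils. Against neutrophils, 10 of the 41 were lower in Ly6Chi and 18 in Ly6Clo macrophages, and none was higher. Over all genes, 20.7% and 22% were lower and 22.7% and 25.2% higher, so the share of members lower in Ly6Chi macrophages was near the background and that in Ly6Clo macrophages above it. Their median log2 difference was -1.34 and -1.85, against 0.04 and 0.12 over all genes. Cyp2e1 was lower by a log2 difference of -1.32 ± 0.36 (SE) in Ly6Chi and -2.04 ± 0.36 in Ly6Clo macrophages than in neutrophils (adjusted p = 0.008 and 0.00039). Cyp3a11 differed by -1.03 ± 0.38 and -1.55 ± 0.38 (adjusted p = 0.039 and 0.004). The first of these was lost when any 1 of 8 libraries was left out (C57BL/6 Ift88Orpk DBA-sorted or Ly6Clo cells, any Ly6Chi library but C57BL/6 Ift88Orpk, or any neutrophil library but C57BL/6 Ift88Orpk), with Cyp3a11 at -0.78 to -1.11.

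Against macrophages, all called hepatocyte-type members were higher in DBA-sorted cells. Of the 41, 6 were higher in DBA-sorted than in Ly6Chi cells and 12 than in Ly6Clo cells, with none lower, beside 25.9% and 23.7% of all genes called higher, a share below the background for Ly6Chi and near it for Ly6Clo. Their median log2 differences were 0.77 and 1.24, against -0.07 and -0.14 over all genes. Cyp8b1, the sterol 12α-hydroxylase of bile acid synthesis, was at 3.62 to 7.99 CPM in DBA-sorted cells and at 0.329 to 0.895 CPM in Ly6Clo macrophages, a log2 difference of 3.22 ± 0.51 (adjusted p = 0.00013). Between DBA-sorted cells and neutrophils 1 of the 41 was higher (Cyp7b1) and 3 were lower, among 33.7% and 27.2% of all genes. Between the macrophage types 0 of the 41 were called, beside 3.29% of all genes higher and 4.36% lower in Ly6Chi.

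The hepatocyte marker genes moved with them. Their sum was 4239, 2863, 2233 and 2186 CPM in DBA-sorted cells, 1658, 1915, 1796 and 602 CPM in Ly6Chi, 921, 1355, 1629 and 467 CPM in Ly6Clo, and 2318, 3473, 5165 and 2642 CPM in neutrophils. The hepatocyte-type members summed to 317, 263, 190 and 210 CPM, then 157, 243, 198 and 54.1 CPM, then 77.6, 136, 189 and 40.4 CPM, and 288, 315, 601 and 270 CPM. Their sum was thus 7.48 to 12.7% of the hepatocyte marker sum in each of the 16 libraries, although that marker sum itself spanned 467 to 5165 CPM. Of the 12 hepatocyte markers, 11 were lower in Ly6Chi and 12 in Ly6Clo macrophages than in neutrophils, and 10 and 12 were lower than in DBA-sorted cells. With the logarithm of this sum added to the fit, 2 of the 67 tested members in place of 30 were called between Ly6Clo macrophages and neutrophils, 8 in place of 23 between Ly6Chi macrophages and neutrophils, and 13 in place of 30 between DBA-sorted cells and Ly6Clo macrophages. Calls over all genes fell too, to 11.2%, 16.6% and 26.1% from 47.3%, 43.5% and 50%. The sum is itself tied to the populations, and the calls lost were also those of members outside the hepatocyte-type list, among them Cyp27a1, Cyp4f16 and Cyp4f37 (given with their values below). In the other 3 comparisons the count of members was within 1.5 times of that without it.

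**Figure D2:**
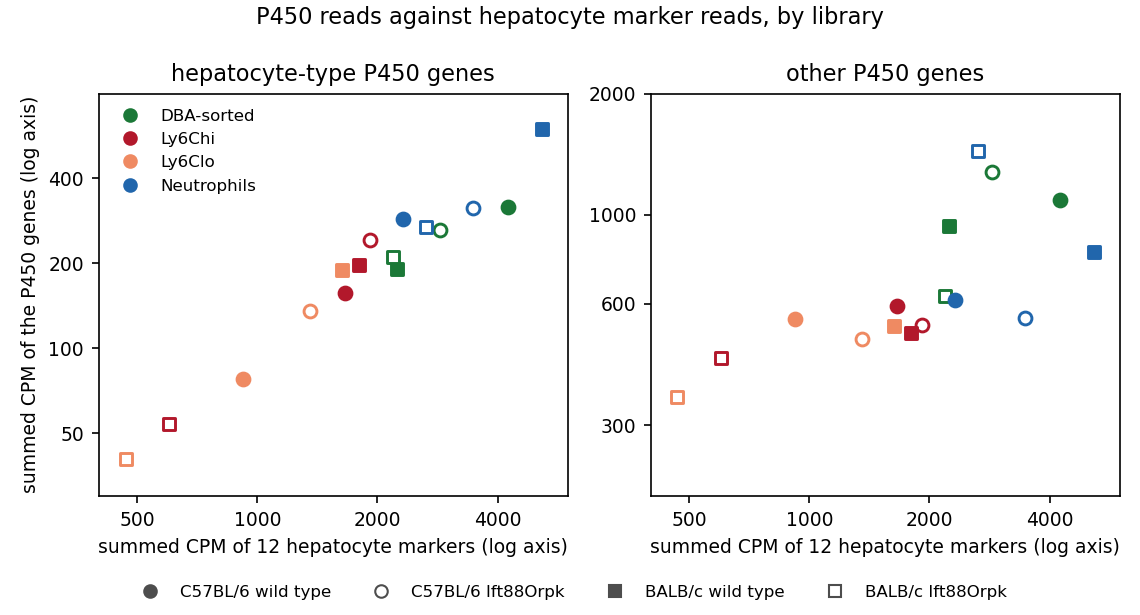
Summed CPM of the hepatocyte-type members (left) and of all other members (right) against the summed CPM of 12 hepatocyte markers, both axes on a log scale, 1 point per library. Colour gives the population, circles C57BL/6 and squares BALB/c, filled points wild type and open points Ift88Orpk; on the left the points stay within 7.48 to 12.7% of the marker sum, and on the right libraries of like marker sum differ by population.

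Gene by gene, 17 hepatocyte-type members were counted in every library. Across the 16 libraries the SD of their log2 CPM had a median of 1.13 (0.856 to 1.84), and the SD of their log2 ratio to the hepatocyte marker sum had a median of 0.529 (0.394 to 1.60). The ratio varied less than the level for 17 of 17, with libraries and depth shared between the values. For the 12 other members counted in every library the median SD went from 1.34 to 1.76, and it was smaller for 4 of 12. The mean was highest in neutrophils for 14 of the 17 and lowest in Ly6Clo macrophages for 16. As a share of the marker sum Cyp2e1 was at 1.03 to 3.51% (median 2.23%), Cyp3a11 at 0.599 to 2.23% (median 1.55%) and Cyp2c29 at 0.258 to 0.989% (median 0.577%).

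Some hepatocyte-type members departed from this steady share. Cyp7b1, the oxysterol 7α-hydroxylase, was at 5.43, 12.9, 12.6 and 15.3 CPM in DBA-sorted cells and at 0.219 to 6.55 CPM in the other 12 libraries. It was the hepatocyte-type member called higher in DBA-sorted cells than in each other population (log2 differences 2.21 ± 0.65, 4.07 ± 0.70 and 2.55 ± 0.66, adjusted p = 0.011, 0.00025 and 0.0042, against Ly6Chi, Ly6Clo and neutrophils). Without the BALB/c Ift88Orpk DBA-sorted library the Cyp7b1 difference from Ly6Chi was 1.71 and did not pass. This call was also lost with the hepatocyte marker sum in the fit. Cyp3a13, a Cyp3a enzyme known also from the intestine, was at 11.2 to 19.1 CPM in neutrophils and at 0 to 2.47 CPM in macrophages, with 14.9, 9.42, 0 and 3.47 CPM in DBA-sorted cells. Its log2 difference from neutrophils was -4.71 ± 1.17 in Ly6Chi and -4.20 ± 1.11 in Ly6Clo macrophages (adjusted p = 0.0049 and 0.0065). With the hepatocyte marker sum in the fit, the Cyp3a13 difference was -1.36 in Ly6Chi macrophages, no longer called, and turned to 0.888 in Ly6Clo macrophages. The SD of the log2 ratio to the marker sum was 1.60 for Cyp2a5, 1.48 for Cyp7b1, 1.32 for Cyp2d9 and 1.19 for Cyp4a14.

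In the DBA-sorted cells, 9 of the 67 tested members were higher than in each of the other 3 populations, beside 16.6% of all genes: Cyp26b1, Cyp4b1, Cyp2d22, Cyp2j6, Cyp2j9, Cyp2s1, Cyp1b1, Cyp20a1 and Cyp7b1. Against each population in turn, 16, 22 and 12 members were higher and 10, 8 and 10 were lower than in Ly6Chi, Ly6Clo and neutrophils. The background for higher calls was 25.9%, 23.7% and 33.7%, and for lower calls 26.9%, 26.3% and 27.2%. The share of members that were highest in DBA-sorted cells was thus not above that of all genes, and the values of the single members follow.

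Cyp26b1 (ENSMUSG00000063415, chr6:84571414-84593908) clears retinoic acid by hydroxylation. It was at 289, 699, 291 and 262 CPM in DBA-sorted cells. It was at 1.21 to 5.33 CPM in Ly6Chi macrophages, 1.29 to 10.9 CPM in Ly6Clo macrophages, and 3.64, 11, 45.0 and 10.2 CPM in neutrophils. The DBA-sorted libraries did not overlap with any other library. The log2 differences were 7.10 ± 0.58, 6.99 ± 0.57 and 4.94 ± 0.52 (adjusted p = 1.7e-07, 2.3e-07 and 1.9e-06) from Ly6Chi, Ly6Clo and neutrophils. Its relatives were far lower: Cyp26a1 reached at most 1.34 CPM and Cyp26c1 at most 3.67 CPM in any library.

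The endothelial marker sum, like Cyp26b1, was highest in DBA-sorted cells. That sum was 19156, 21113, 25063 and 15082 CPM in DBA-sorted cells and 699, 1991, 3337 and 757 CPM in neutrophils, against 372 to 911 CPM in macrophages, and the neutrophil library highest in it was also highest in Cyp26b1. Within the DBA-sorted cells the order was not the same, since the library highest in endothelial markers held 291 CPM of Cyp26b1 and that with 699 CPM came next. The ratio of Cyp26b1 to this sum was 0.0193 ± 0.0095 (SD, n = 4) in DBA-sorted cells, with means of 0.0058 to 0.0094 in the other populations and a range of 0.0019 to 0.0331 over the 16 libraries. The stellate cell and fibroblast marker sum was 2152, 4279, 1919 and 9896 CPM in DBA-sorted cells, and the cholangiocyte sum was 750 to 1385 CPM. Whether Cyp26b1 transcripts came from cholangiocytes, endothelial cells, stellate cells or fibroblasts was not tested.

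Cyp4b1 (chr4:115624725-115647723), a fatty acid and protoxin hydroxylase best known from lung, was at 419, 281, 426 and 136 CPM in DBA-sorted cells. It was at 1.66 to 9.70 CPM in Ly6Chi, 1.29 to 17.0 CPM in Ly6Clo and 9.66, 39.2, 75.1 and 10.4 CPM in neutrophils, so that no DBA-sorted library overlapped with another population. Its log2 differences were 5.84 ± 0.46, 5.69 ± 0.46 and 3.57 ± 0.42 (adjusted p = 1.3e-07, 1.8e-07 and 4.6e-06). Cyp2d22, often taken as the mouse counterpart of human CYP2D6, was at 121, 109, 51.6 and 29.0 CPM against 0.319 to 4.85 CPM in macrophages and 5.65 to 15.6 CPM in neutrophils. Its log2 differences were 4.84 ± 0.58, 4.86 ± 0.58 and 2.92 ± 0.54 (adjusted p = 7.7e-06, 9.2e-06 and 0.0003).

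Cyp2j6 and Cyp2j9, members of a subfamily of arachidonic acid epoxygenases, and Cyp2s1 were also higher there. Of the other Cyp2j genes, Cyp2j5 was not higher than in each other population, Cyp2j7, Cyp2j11 and Cyp2j12 had no count and Cyp2j8 and Cyp2j13 were not tested. Cyp2j6 was at 25.7, 25.8, 20.8 and 16.0 CPM in DBA-sorted cells and at 0.152 to 3.28 CPM elsewhere, with log2 differences of 4.56 ± 0.55, 5.07 ± 0.56 and 3.36 ± 0.51 (adjusted p = 8e-06, 4.1e-06 and 6e-05). Cyp2j9 was at 2.23 to 3.04 CPM in DBA-sorted cells and at most 0.517 CPM elsewhere. Cyp2s1, known from epithelia, was at 42.3, 24.1, 10.5 and 11.4 CPM in DBA-sorted cells. It was at 0 to 1.03 CPM in Ly6Chi and 2.33 to 4.88 CPM in Ly6Clo macrophages, the 1 member called between the macrophage types (log2 difference -3.20 ± 0.67, adjusted p = 0.0099), beside 3.29% of all genes higher and 4.36% lower.

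Cyp1b1, an oestrogen and polycyclic hydrocarbon hydroxylase known from mesenchymal cells, was at 12.5, 6.60, 12.1 and 24.2 CPM in DBA-sorted cells and at 0 to 2.39 CPM elsewhere. Its highest library, BALB/c Ift88Orpk, was also the highest in the stellate cell and fibroblast marker sum (9896 CPM). But the library next in that sum, C57BL/6 Ift88Orpk (4279 CPM), was the lowest in Cyp1b1. Cyp20a1, an orphan P450, was at 48.8, 45.3, 46.3 and 40.8 CPM in DBA-sorted cells, 16.4 to 26.8 CPM in Ly6Chi, 10.3 to 15.1 CPM in Ly6Clo and 3.51 to 10.2 CPM in neutrophils. These 4 ranges did not overlap, and the log2 differences of DBA-sorted cells were 1.13 ± 0.30, 1.83 ± 0.30 and 2.79 ± 0.32 (adjusted p = 0.0053, 0.00017 and 3.8e-06). With the hepatocyte marker sum in the fit, the calls against Ly6Chi were lost for Cyp20a1 and Cyp7b1. Those against Ly6Clo were lost for Cyp1b1, Cyp2j9 and Cyp2s1. Among rare members, the brain cholesterol 24-hydroxylase Cyp46a1 had 46 counts there and 0 in the other 12 libraries, and Cyp4f39, which makes skin ceramide fatty acids, had 33 and 0. At a floor of 3 counts per population that put Cyp46a1 at least 10.1-fold and Cyp4f39 at least 7.27-fold higher than in neutrophils. Neither passed the filter, so neither was tested, and Cyp4f39 varied widely between the DBA-sorted libraries (0.396 ± 0.509 CPM, mean and SD).

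**Figure D3:**
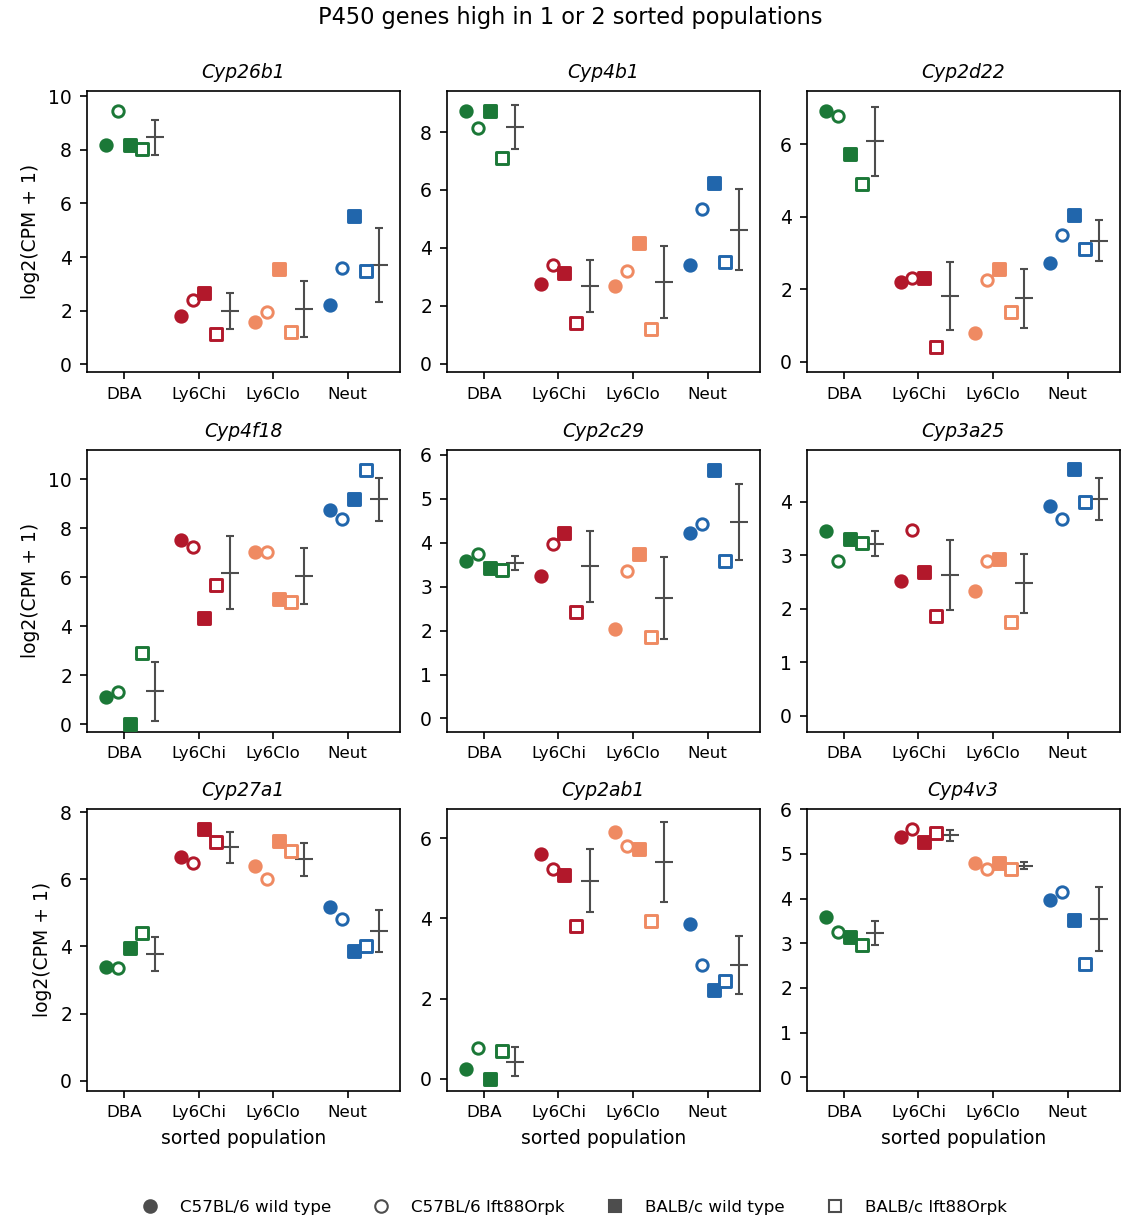
Values of log2(CPM + 1) per library for 9 members, with the mean and SD of the 4 log2 values of each population. Cyp26b1, Cyp4b1 and Cyp2d22 stand highest in the DBA-sorted cells, Cyp4f18, Cyp2c29 and Cyp3a25 in neutrophils, and Cyp27a1, Cyp2ab1 and Cyp4v3 in both macrophage types.

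In neutrophils, 3 of the 67 members were higher than in each other population, beside 11.7% of all genes: Cyp4f18, Cyp2c29 and Cyp3a25. Cyp4f18 (ENSMUSG00000003484, chr8:71988482-72009626) hydroxylates leukotriene B4, the lipid that draws neutrophils. It was at 429, 334, 579 and 1319 CPM in neutrophils. It was at 180, 150, 19.2 and 49.9 CPM in Ly6Chi, 129, 129, 33.4 and 31.0 CPM in Ly6Clo, and 1.19, 1.52, 0 and 6.42 CPM in DBA-sorted cells. Neutrophil libraries lay above all others, and macrophage libraries above all DBA-sorted ones.

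The log2 differences of Cyp4f18 from neutrophils were -3.07 ± 0.84 for Ly6Chi macrophages, -3.23 ± 0.82 for Ly6Clo macrophages and -8.60 ± 1.03 for DBA-sorted cells (adjusted p = 0.0086, 0.0054 and 6.2e-06). The neutrophil marker sum was 565 to 1685 CPM in Ly6Chi, 485 to 1957 CPM in Ly6Clo and 34.2 to 315 CPM in DBA-sorted cells, and its part in the Cyp4f18 counts of those libraries was not tested. With the hepatocyte marker sum in the fit, the call against Ly6Chi was lost and the Cyp4f18 difference of Ly6Clo macrophages from neutrophils turned to 1.06, while the call against DBA-sorted cells held. Of the exon length of Cyp4f18, 9.76% is overlapped by Zfp961. The other 2 neutrophil-high members are hepatocyte-type genes. Their calls against both macrophage types were lost with the hepatocyte marker sum in the fit. Those against DBA-sorted cells were kept (Cyp2c29 at -0.84 and Cyp3a25 at -0.73, adjusted p = 0.0126 and 0.0489), and between these populations 0 of the 12 hepatocyte markers were called, with a median log2 difference of -0.22 against 0.24 over all genes. Cyp3a25 was at 14.1, 11.9, 23.3 and 14.8 CPM in neutrophils and 6.43 to 9.92 CPM in DBA-sorted cells, with a log2 difference of -0.90 ± 0.36 between DBA-sorted cells and neutrophils (adjusted p = 0.044). This call was lost without any 1 of 10 libraries, with Cyp3a25 at -0.60 to -0.95 (both middle DBA-sorted libraries in the order used, both wild-type Ly6Chi libraries, all Ly6Clo libraries but BALB/c Ift88Orpk, and all neutrophil libraries but C57BL/6 Ift88Orpk). That of Cyp2c29, -0.92 ± 0.34 (adjusted p = 0.03), was lost without any 1 of 5, at -0.59 to -0.91 (the same DBA-sorted libraries, C57BL/6 Ift88Orpk Ly6Clo cells and either wild-type neutrophil library). Of the 75-base stretches of Cyp3a25, 12.3% are shared with Cyp3a59.

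Both macrophage types stood above both other populations for 5 of the 67 members, beside 5.21% of all genes: Cyp27a1, Cyp4f16, Cyp2ab1, Cyp4v3 and Cyp4f37. None was higher in Ly6Clo macrophages than in each of the other 3, where 1.22% of all genes were. Cyp27a1 (ENSMUSG00000026170, chr1:74713574-74737892) is the mitochondrial sterol 27-hydroxylase, an enzyme of bile acid synthesis in hepatocytes and of cholesterol removal in macrophages. It was at 101, 89.1, 179 and 138 CPM in Ly6Chi and 83.1, 63.7, 139 and 115 CPM in Ly6Clo macrophages. It was at 9.48, 9.16, 14.6 and 20.3 CPM in DBA-sorted cells and 35.0, 27.3, 13.4 and 15.0 CPM in neutrophils, below every macrophage library. The log2 difference of Cyp27a1 was -3.25 ± 0.37 for DBA-sorted cells against Ly6Chi macrophages and 2.39 ± 0.36 for Ly6Chi macrophages against neutrophils (adjusted p = 4.7e-06 and 0.00014). With the hepatocyte marker sum in the fit, the calls of Ly6Clo macrophages against neutrophils were lost for Cyp27a1, Cyp4f16 and Cyp4v3. Those of both macrophage types against neutrophils were lost for Cyp4f37, and that of Ly6Clo macrophages against DBA-sorted cells for Cyp4v3.

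Cyp2ab1 (chr16:20308387-20325404), an orphan P450, was at 48.2, 36.6, 33.2 and 13.1 CPM in Ly6Chi and 71.0, 55.3, 51.8 and 14.3 CPM in Ly6Clo macrophages. It was at 0 to 0.695 CPM in DBA-sorted cells and 3.61 to 13.4 CPM in neutrophils, whose highest library lay just above the lowest Ly6Chi library. In both macrophage types BALB/c Ift88Orpk was the lowest of the 4 libraries. Its log2 differences against neutrophils were 2.28 ± 0.50 in Ly6Chi and 2.80 ± 0.51 in Ly6Clo (adjusted p = 0.002 and 0.00046). Cyp4v3, the mouse ortholog of the human retinal dystrophy gene CYP4V2, was at 37.3 to 46.2 CPM in Ly6Chi, 24.4 to 26.9 CPM in Ly6Clo, 6.85 to 11 CPM in DBA-sorted cells and 4.79 to 16.7 CPM in neutrophils. Its Ly6Chi and Ly6Clo ranges did not overlap, but their log2 difference of 0.71 ± 0.25 did not pass the test (adjusted p = 0.11).

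The Cyp4f family holds fatty acid and eicosanoid hydroxylases, and its members showed unlike patterns within 1 gene cluster. Of its genes, 8 lie on chromosome 17 and Cyp4f18 lies on chromosome 8. Cyp4f16 (chr17:32536558-32551798) was at 106 to 145 CPM in Ly6Chi and 99.1 to 160 CPM in Ly6Clo macrophages, 12.3 to 28.0 CPM in DBA-sorted cells and 11 to 40.3 CPM in neutrophils. Its log2 differences against neutrophils were 2.41 ± 0.38 and 2.46 ± 0.38 (adjusted p = 0.00018 and 0.00013). Cyp4f37 (chr17:32621309-32636184) was at 21.5, 9.48, 11.5 and 3.75 CPM in Ly6Clo macrophages, 1.91 to 3.71 CPM in Ly6Chi macrophages and 0 to 0.628 CPM in neutrophils, with no count in any DBA-sorted library. At a floor of 3 counts over the 4 DBA-sorted libraries it was at least 76.0-fold higher in Ly6Chi and at least 288-fold higher in Ly6Clo macrophages.

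Cyp4f16 and Cyp4f37, whose promoter windows are printed above, are near copies. Of the 75-base stretches of Cyp4f37, 11.4% are shared with Cyp4f16, and 89.9% of those of Cyp4f16 are unique. Cyp4f14, a leukotriene B4 hydroxylase of liver, went the other way: it was at 4.52 to 14.8 CPM in DBA-sorted cells and 3.92 to 17.1 CPM in neutrophils but 1.02 to 5.12 CPM in Ly6Chi and 1.11 to 4.80 CPM in Ly6Clo macrophages. Its log2 difference between DBA-sorted cells and Ly6Clo macrophages was 2.40 ± 0.38 (adjusted p = 0.00012). Cyp4f13 was at 10.7 to 16.5 CPM in DBA-sorted cells and 21.5 to 33.1 CPM in the other 12 libraries, with log2 differences of DBA-sorted cells from the other 3 of -0.75 ± 0.16, -1.06 ± 0.16 and -0.95 ± 0.16 (adjusted p = 0.0015, 0.0001 and 0.00019). Cyp4f17 was at 7.14 to 13.2 CPM in Ly6Chi and 1.72 to 3.64 CPM in neutrophils, a log2 difference of 1.82 ± 0.30 (adjusted p = 0.00024).

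**Figure D4:**
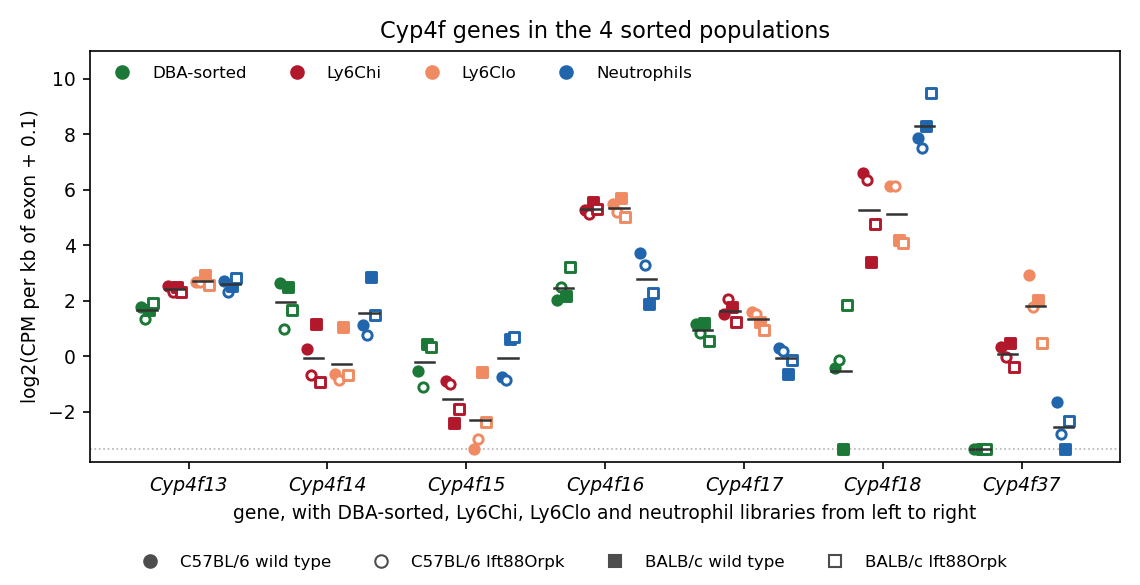
Level of 7 Cyp4f genes per library as log2(CPM per kb of exon + 0.1), with a bar at the mean of each population and a dotted line at 0 counts. Cyp4f18 is highest in neutrophils, Cyp4f16 and Cyp4f37 in macrophages, and Cyp4f13 lies in a narrow range, lowest in DBA-sorted cells.

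Genes that work with the P450s were taken from lists of electron donors and haem synthesis, aryl hydrocarbon receptor (Ahr), retinoid, xenobiotic receptor and eicosanoid genes. Their counts are to be read against all genes, of which 25.9%, 23.7% and 33.7% were higher and 26.9%, 26.3% and 27.2% lower in DBA-sorted cells than in Ly6Chi, Ly6Clo and neutrophils, with median log2 differences of -0.07, -0.14 and 0.24. Of 12 electron donor and haem genes tested, 6, 6 and 8 were higher and 2, 1 and 3 lower in DBA-sorted cells than in Ly6Chi, Ly6Clo and neutrophils. Beside 25.9%, 23.7% and 33.7% of all genes higher, the share of this list was above the background in each comparison. Its median log2 differences were 0.29, 0.50 and 0.99. Por, the reductase of microsomal P450s, was at 427 ± 227 CPM (SD, n = 4) in neutrophils, 89.9 ± 39.2 CPM in Ly6Chi, 74.2 ± 10.8 CPM in Ly6Clo and 46.8 ± 8.70 CPM in DBA-sorted cells. Its log2 difference of DBA-sorted cells from neutrophils was -3.03 ± 0.30 (adjusted p = 9.4e-07). The cytochrome b5 pair stood the other way round, with Cyb5a at 88.8 ± 10.2 CPM and Cyb5r3 at 157 ± 9.33 CPM in DBA-sorted cells against 31.4 to 34.3 CPM and 41.7 to 56.6 CPM on average elsewhere. Fdx1, the ferredoxin of mitochondrial P450s such as Cyp27a1, averaged 10.1 CPM in DBA-sorted cells and 2.72 to 4.07 CPM elsewhere, unlike Cyp27a1, which was lowest in DBA-sorted cells.

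Of 13 retinoid genes tested, 9, 8 and 9 were higher and 2 lower in DBA-sorted cells than in Ly6Chi, Ly6Clo and neutrophils, with median log2 differences of 2.05, 2.08 and 2.17, beside 23.7 to 33.7% of all genes higher and all-gene medians of -0.07, -0.14 and 0.24. Rarb, a retinoic acid receptor and known retinoic acid target, was at 74.8 ± 11.2 CPM there and averaged 2.83, 3.30 and 7.36 CPM in the other 3. Dhrs3, a retinal reductase, was at 272 ± 36.4 CPM against means of 50.03 to 51.2 CPM, and Lrat, which stores retinol as esters and is a known stellate cell gene, at 15.7 ± 3.20 CPM against means of 1.70 to 5.40 CPM. The log2 differences of Rarb were 4.74 ± 0.34, 4.57 ± 0.34 and 3.46 ± 0.32 (adjusted p = 5.4e-08, 8.2e-08 and 5.1e-07). Rarg, another retinoic acid receptor, was also highest in DBA-sorted cells, at 140 ± 19.5 CPM against means of 50.4 to 90.6 CPM (log2 differences 0.65 ± 0.14, 1.48 ± 0.14 and 1.04 ± 0.14, adjusted p = 0.0012, 8.6e-07 and 1.6e-05). A further receptor, Rara, was lowest in DBA-sorted cells (50.3 ± 4.98 CPM) and highest in neutrophils (516 ± 83.9 CPM).

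Of 14 eicosanoid genes tested, 5, 5 and 4 were higher and 6, 7 and 6 lower in DBA-sorted cells than in Ly6Chi, Ly6Clo and neutrophils. Their medians were -0.59, -0.99 and -0.64 (-0.07, -0.14 and 0.24 over all genes). The share higher was above that of all genes against Ly6Chi and Ly6Clo (25.9% and 23.7%) and below it against neutrophils (33.7%). The share lower was above that of all genes in each comparison (26.3 to 27.2%). With 14 genes these shares are coarse. The 5-lipoxygenase Alox5, which starts leukotriene synthesis, was at 355 ± 94.7 CPM in neutrophils and averaged 7.55 to 26.2 CPM elsewhere, and its partner Alox5ap at 198 ± 58.8 CPM. The log2 differences of Alox5 from neutrophils were -5.82 ± 0.51 in DBA-sorted cells, -4.65 ± 0.48 in Ly6Chi and -3.92 ± 0.46 in Ly6Clo (adjusted p = 3e-07, 7.1e-06 and 1.5e-05). Ltb4r1, the leukotriene B4 receptor, averaged 88.5, 73.4 and 52.1 CPM in neutrophils, Ly6Chi and Ly6Clo and 1.5 CPM in DBA-sorted cells. Ptgs1 and Alox12 were highest in DBA-sorted cells, at 248 ± 20.8 and 36.0 ± 14.2 CPM. Ptgs2 went the other way, at 5103 ± 2235 CPM in neutrophils and 20.1 ± 29.2 CPM in DBA-sorted cells, with means of 176 and 104 CPM in Ly6Chi and Ly6Clo.

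Of 9 Ahr pathway genes tested, 1 was higher (Ahr) and 5, 5 and 6 were lower in DBA-sorted cells than in the other populations, with medians of -1.13, -0.62 and -0.87, beside 26.9%, 26.3% and 27.2% of all genes lower and all-gene medians of -0.07, -0.14 and 0.24. Ahr, the receptor that induces family 1 P450s, was at 265 ± 106 CPM in DBA-sorted cells, 143 ± 13.8 CPM in Ly6Chi, 62.7 ± 6.26 CPM in Ly6Clo and 62.1 ± 33.1 CPM in neutrophils. Tiparp, another Ahr target, was highest in neutrophils (247 ± 97.4 CPM) and lowest in DBA-sorted cells (24.5 ± 9.03 CPM). Of 9 xenobiotic and metabolic nuclear receptors, 4, 5 and 3 were higher and 2, 1 and 0 lower in DBA-sorted cells, with medians of 1.2, 2.06 and 0.69. Beside 25.9%, 23.7% and 33.7% of all genes higher, the share against neutrophils was that of the background. Hnf4a averaged 39.1 CPM there and 5.58 to 17.4 CPM elsewhere, and the xenobiotic receptor Nr1i3 averaged at most 1.06 CPM in any population.

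Within each population, strain and genotype were compared with 2 libraries a side, the other factor's levels serving as replicates. No member was called between BALB/c and C57BL/6 in any population, beside 0.297% of all genes in DBA-sorted cells, 0.334% in Ly6Chi, 0.255% in Ly6Clo and 1.4% in neutrophils. Of the 67 tested members, 7, 6, 5 and 8 had an unadjusted p below 0.05, beside 10.6%, 9.11%, 8.13% and 13.7% of all genes, so these counts were near the background. DESeq2 called 3, 2, 2 and 4 members by adjusted p, beside 2.3%, 2.36%, 1.86% and 4.32% of all genes. Cyp2c39, named after its values were seen, was higher in BALB/c without overlap in all 4 populations (1.89% of all genes were), and Cyp1a1, Cyp2a4 and Cyp2a5 were lower without overlap in all 4 (2.33% of all genes).

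Cyp1a1 (ENSMUSG00000032315, chr9:57687928-57703824), the hydrocarbon hydroxylase induced by Ahr, was at 40.3 and 6.77 CPM in C57BL/6 and 2.59 and 1.81 CPM in BALB/c DBA-sorted cells (wild type, then Ift88Orpk). In Ly6Chi macrophages it was at 6.55 and 6.25 CPM in C57BL/6, with no count in BALB/c. In Ly6Clo macrophages it was at 4.99 and 7.65 CPM against 0.101 and 0, and in neutrophils at 12.7 and 19.2 CPM against 0.444 and 0.192 CPM. In counts, C57BL/6 held 802 against 89 in DBA-sorted cells, 230 against 0 in Ly6Chi, 339 against 2 in Ly6Clo and 414 against 10 in neutrophils. With 3 counts set for the 0, the pooled level in Ly6Chi was at least 73.7-fold higher in C57BL/6.

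The strain differences of Cyp1a1 did not pass adjustment over all genes. Its log2 differences, BALB/c minus C57BL/6, were -2.95 ± 0.84 in DBA-sorted cells, -6.86 ± 1.14 in Ly6Clo and -5.52 ± 0.97 in neutrophils, with adjusted p = 0.308, 0.116 and 0.0565. The neutrophil difference passed under DESeq2 (adjusted p = 2.15e-05), without the count filter (0.0177) and in a fit of the 4 neutrophil libraries (0.0162). Between populations, Cyp1a1 was higher in DBA-sorted cells than in Ly6Chi and Ly6Clo macrophages by 3.37 ± 0.85 and 3.31 ± 0.84 on the log2 scale (adjusted p = 0.0041 and 0.0047), which was lost when strain and genotype were left out of the fit (and for Ly6Clo also with the hepatocyte marker sum, or in the 8 libraries of that pair). In C57BL/6 Ift88Orpk mice, the Cyp1a1 level of DBA-sorted cells given above lay between those of Ly6Chi and Ly6Clo macrophages. Cyp1a2 overlapped between the strains in Ly6Clo macrophages and neutrophils, and its strain differences had adjusted p values of 0.558 to 1.

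Cyp2c39, a retinoic acid hydroxylase of liver, was at 0 and 0.217 CPM in C57BL/6 and 4.11 and 5.19 CPM in BALB/c DBA-sorted cells. It was at 0.084 and 0 against 9.14 and 1.91 CPM in Ly6Chi, 0 and 0.278 against 6.06 and 1.42 CPM in Ly6Clo, and 0.377 and 0.0612 against 20.8 and 7.85 CPM in neutrophils. The counts were 5 against 190, 1 against 205, 9 against 153 and 4 against 457. Its log2 differences of 5.47 ± 1.47, 7.02 ± 1.72, 4.28 ± 1.44 and 6.20 ± 1.49 had adjusted p values of 0.277, 0.221, 0.443 and 0.116. Cyp2a5, a coumarin hydroxylase, was at 4.43 and 2.61 CPM in C57BL/6 and 0.0507 and 0.856 CPM in BALB/c DBA-sorted cells, and shares 75-base stretches with Cyp2a4 (77.7% unique).

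Macrophage-high members also gave strain differences short of the threshold. The log2 differences of Cyp27a1, BALB/c minus C57BL/6, were 0.89 ± 0.22 in DBA-sorted cells, 0.73 ± 0.21 in Ly6Chi, 0.80 ± 0.21 in Ly6Clo and -1.12 ± 0.22 in neutrophils (adjusted p = 0.227, 0.299, 0.3 and 0.0599). A joint test of whether its strain difference varied between populations gave an adjusted p of 0.216 (edgeR's quasi-likelihood test). Cyp4f16 was at 40.3 and 29.7 CPM in C57BL/6 and 11 and 14.7 CPM in BALB/c neutrophils, a log2 difference of -1.45 ± 0.27 (adjusted p = 0.0518). Cyp4f18 was at 180 and 150 CPM in C57BL/6 and 19.2 and 49.9 CPM in BALB/c Ly6Chi macrophages, where the log2 difference was -2.40 ± 0.97 (adjusted p = 0.506).

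Between Ift88Orpk and wild type, no gene of the 19183 was called in any population (0% of all genes), and so no member. Of the 67 tested members, 3, 3, 1 and 1 had an unadjusted p below 0.05 in DBA-sorted cells, Ly6Chi, Ly6Clo and neutrophils, beside 6.01%, 2.12%, 1.76% and 5.03% of all genes. DESeq2 called 1 member, in Ly6Clo macrophages, where it called 9 of all genes (0.0469%); in the other 3 it called 0.375%, 0.0156% and 0.0938% of all genes. No member was separated by genotype without overlap in all 4 populations, where 0.25% of all genes were higher and 0.141% lower in Ift88Orpk. Cyp26b1 was at 289 and 699 CPM in wild-type and Ift88Orpk C57BL/6 and 291 and 262 CPM in BALB/c DBA-sorted cells, a log2 difference of 0.56 ± 1.02 (adjusted p = 1).

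Cyp2d9, a steroid 16α-hydroxylase that is higher in adult male than female mouse liver, was at 5.04 and 12.9 CPM in wild-type and 1.19 and 0.892 CPM in Ift88Orpk Ly6Chi macrophages. In Ly6Clo macrophages it was at 2.80 and 10.4 CPM in wild type and 0.401 and 0.560 CPM in Ift88Orpk. The log2 differences in these 2 populations were -2.94 ± 0.77 and -3.51 ± 0.79, with adjusted p = 1 in both. In DBA-sorted cells and neutrophils the wild-type and Ift88Orpk libraries overlapped. The sum of 4 Y-linked genes was 87.0 and 169 CPM in wild-type and 224 and 188 CPM in Ift88Orpk Ly6Chi macrophages. In Ly6Clo macrophages the genotypes overlapped in this sum, at 80.9 and 223 CPM in wild type and 212 and 141 CPM in Ift88Orpk. Xist ranged from 113 to 1176 CPM over the 16 libraries, although the labels give equal numbers of both sexes in each pool. The part of sex composition in the Cyp2d9 values was not tested.

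**Figure D5:**
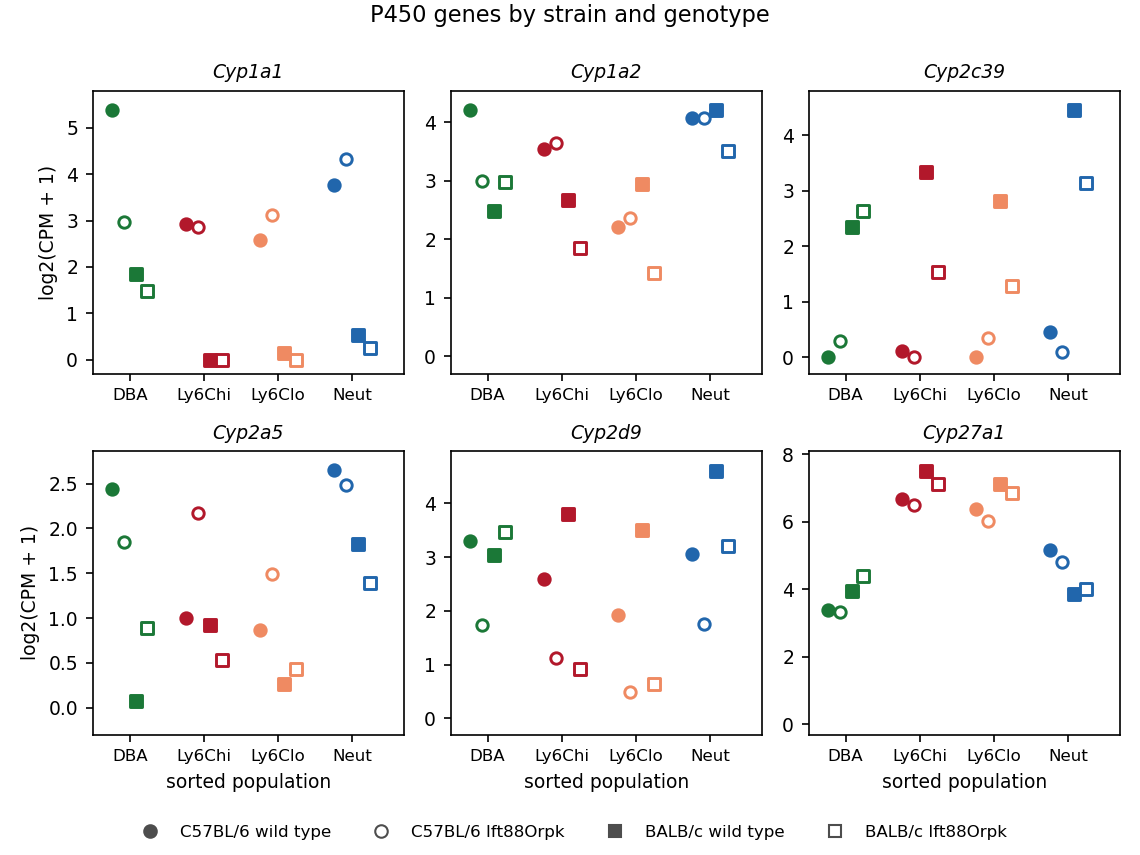
Values of log2(CPM + 1) for Cyp1a1, Cyp1a2, Cyp2c39, Cyp2a5, Cyp2d9 and Cyp27a1 by population, strain and genotype, 1 point per library and no error bars. Cyp1a1 lies lower and Cyp2c39 higher in BALB/c in each population, and Cyp2d9 lies lower in Ift88Orpk in both macrophage types. None of these differences passed the adjusted threshold.

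By role, the bile acid and sterol members did not move as 1 group. Of the 5 tested (Cyp7a1, Cyp7b1, Cyp8b1, Cyp27a1 and Cyp39a1), 2, 3 and 2 were higher and 1 lower in DBA-sorted cells than in Ly6Chi, Ly6Clo and neutrophils, beside 23.7 to 33.7% of all genes higher and 26.3 to 27.2% lower. In Ly6Chi macrophages 2 were higher and 1 lower than in neutrophils (22.7% and 20.7% of all genes), in Ly6Clo macrophages 1 was higher and 1 lower than in neutrophils (25.2% and 22%), and 0 were called between the macrophage types. With 5 genes these shares are coarse. Cyp39a1, the oxysterol 7α-hydroxylase for 24-hydroxycholesterol, was at 17.0 and 13.7 CPM in C57BL/6 and 4.96 and 3.82 CPM in BALB/c Ly6Chi macrophages. It was at 4.71 to 11.2 CPM in DBA-sorted cells, 1.16 to 5.25 CPM in Ly6Clo macrophages and 2.44 to 5.33 CPM in neutrophils. Its strain difference in Ly6Chi macrophages, -1.80 ± 0.66 on the log2 scale, did not pass (adjusted p = 0.448). A fit of those 4 libraries alone gave -1.76 with an adjusted p of 0.0471, and the adjusted p was 0.231 to 1 under the other alternatives. Cyp2c70, which makes the muricholic acids of mouse bile, was at 8.42 to 13.5 CPM in DBA-sorted cells and 7.03 to 23.7 CPM in neutrophils, against 1.98 to 7.12 CPM in Ly6Clo macrophages. Its log2 difference between the last pair was -1.59 ± 0.44 (adjusted p = 0.0084).

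In the Cyp2d cluster, Cyp2d26 and Cyp2d10 had the same order of means as Cyp2e1. Cyp2d26 was at 5.04 to 10.9 CPM in DBA-sorted cells, 2.61 to 6.91 CPM in Ly6Chi, 0.99 to 4.33 CPM in Ly6Clo and 8.41 to 14.9 CPM in neutrophils, which lay above all macrophage libraries. The log2 difference of Ly6Clo macrophages from neutrophils was -2.18 ± 0.36 (adjusted p = 0.00021). Cyp2d10, of whose 75-base stretches 77.7% are unique, had a mean of 8.53 ± 5.56 CPM in neutrophils and 3.38 ± 1.74 CPM in Ly6Clo macrophages and passed no comparison. Cyp2d22 stood apart from both, since its neutrophil libraries (5.65 to 15.6 CPM) all lay below the lowest DBA-sorted library.

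Among the members with no count in any library were Cyp19a1 (aromatase), Cyp24a1 (vitamin D breakdown) and Cyp11b2 (aldosterone synthase). Also at 0 were Cyp2b19, Cyp2b23, Cyp2c66, Cyp2d12, Cyp2j7, Cyp2j11, Cyp2j12, Cyp3a41a, Cyp3a41b, Cyp3a57, Cyp4a12b, Cyp4a29 and Cyp4a30b. For a few of these near copies reads may not be assigned, since 4.73% of the 75-base stretches of Cyp3a41a and 58.7% of those of Cyp4a12b are unique in the annotated transcripts. Of all 99 members, 32 had under 90% unique stretches. Cyp7a1, the rate-limiting enzyme of bile acid synthesis, was counted in every library at 0.0637 to 3.73 CPM.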

How the data were processed

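RNA of sorted liver cells was measured in 16 libraries by RNA-seq. Per the labels' protocols, RNA with an integrity number above 7 was made into libraries with a NEBNext mRNA kit with ribosome reduction and read as paired 75 nt reads on a NextSeq500. The authors deposited raw read counts per Ensembl gene, made per the labels' protocols with STAR on GRCm38 and HTSeq-count 0.9.1; per the submitters' processing notes the build was GRCm38.p4, and bcl2fastq 2.18.0.12 and Cufflinks 2.2.1 were also used. The sources used here do not give the strand setting or annotation release of the counting, so overlapping genes may share counts. Symbols, positions and exon lengths came from GENCODE M21, which matched 48349 of 48795 identifiers. Summary lines were left out: no-feature reads were 29.1 to 45.2% of all, ambiguous reads 2.23 to 3.95% and reads with several alignments 7.02 to 11.2%.

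CPM used library sizes adjusted by trimmed mean of M values. The quasi-likelihood test of edgeR 4.0.16 under R 4.3.3 was applied to the 19183 genes that passed filterByExpr, and p-values were adjusted over these genes by Benjamini-Hochberg (threshold 0.05). Populations were compared in all 16 libraries with the combination of strain and genotype as a block, which ties libraries that share strain and genotype labels and may share mice. Strain and genotype were compared within populations in 1 fit that gave each population its own strain term and its own genotype term. SE is the log2 difference over the square root of F. The scripts were tested on simulated data with 200 genes changed 4-fold. A minimum of recovered genes was required for a population comparison only, and recovery in the genotype comparison is not given here. Tables used Python 3.11.15, numpy 2.4.6, pandas 2.3.3, scipy 1.17.1 and biopython 1.88. DESeq2 1.42.0, other scalings and filters, a hepatocyte marker covariate and leaving out each library were the alternatives. Floors and counting intervals cover counting error only.

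Named members were the 4 markers Cyp2e1, Cyp3a11, Cyp1a1 and Cyp26b1, the 12 hepatocyte-type members of highest mean CPM, other members of at least 5 CPM in 1 population, those highest in 1 population, and the 3 of smallest p per strain or genotype contrast. Cyp2c39, Cyp2a4, Cyp2a5, Cyp46a1, Cyp4f39, Cyp26a1, Cyp26c1 and Cyp7a1 and members at 0 were named outside this rule after their values were seen. Members and lists were chosen with earlier results of these data known. Unique stretches are 75-base sequences of a member found in no other annotated gene's transcripts.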

Additional observations from a re-analysis of the deposited data

Results flagged for a closer look

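In 83 groups of 4 libraries, 1 library of a member's group stood apart from the other 3 by most of the group's range in 7 cases, and chance flags about 1 in 20 groups. Cyp1a1 was at 40.3 CPM in C57BL/6 wild-type DBA-sorted cells, with the next library at 6.77 CPM. Cyp26b1 was at 699 CPM in C57BL/6 Ift88Orpk DBA-sorted cells, with the next at 291 CPM. In BALB/c wild-type neutrophils, the library with the highest hepatocyte marker sum (5165 CPM), Cyp2e1 was at 180 CPM (next 79.9 CPM), Cyp3a11 at 58.2 CPM (next 45.6 CPM) and Cyp2d10 at 16.8 CPM (next 6.18 CPM). Cyp3a13 was at 19.1 CPM in BALB/c Ift88Orpk neutrophils, with the next at 11.9 CPM. Cyp2d26 was lowest in BALB/c Ift88Orpk Ly6Chi macrophages, at 2.61 CPM with the next at 6.48 CPM, and that library had the lowest hepatocyte marker sum of its population (602 CPM). The part of hepatocyte RNA in these values was not tested.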

How the results depend on the processing

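Of 112 calls of named members in the population comparisons, 49 held under every alternative run, among them Cyp26b1, Cyp4b1, Cyp2d22 and Cyp2j6 against each population from DBA-sorted cells, Cyp27a1 and Cyp4f16 in macrophages against neutrophils (Ly6Chi) and Cyp4f18 against DBA-sorted cells. Reversals came from 1 alternative, the hepatocyte marker sum as a covariate, which is itself tied to the populations; the cause was not tested. The log2 differences between Ly6Clo macrophages and neutrophils became 1.06 (Cyp4f18), 0.888 (Cyp3a13), 0.0255 (Cyp1a2), 0.902 (Cyp2c50), 0.259 (Cyp3a11), 0.336 (Cyp2c70), 0.227 (Cyp2d22), 0.317 (Cyp26b1) and 0.498 (Cyp2d9), and between Ly6Chi and neutrophils 0.307 (Cyp1a2) and 0.282 (Cyp3a11). Between DBA-sorted cells and Ly6Clo macrophages they became -0.2998 (Cyp2c29), -0.156 (Cyp39a1), -0.193 (Cyp2e1), -0.651 (Cyp1a2), -0.445 (Cyp2c70) and -0.350 (Cyp2d9), and Cyp3a13 became -0.166 between DBA-sorted cells and Ly6Chi.

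Counts of members called moved under that covariate from 30 to 13 (DBA-sorted against Ly6Clo), 23 to 8 (Ly6Chi against neutrophils) and 30 to 2 (Ly6Clo against neutrophils). DESeq2 gave 6 for 1 between the macrophage types, 41 for 23 between Ly6Chi and neutrophils, 3, 2, 2 and 4 for 0 by strain (DBA-sorted, Ly6Chi, Ly6Clo, neutrophils) and 1 for 0 by genotype in Ly6Clo. The 8 macrophage libraries alone gave 9 for 1. By strain, no count filter gave 1, 1 and 3 and fits of 4 libraries gave 3, 1 and 2 in Ly6Chi, Ly6Clo and neutrophils. Leaving out 1 library gave 21 to 30, 22 to 34, 17 to 22, 1 to 2, 17 to 28 and 25 to 33 members in the 6 comparisons (26, 30, 22, 1, 23 and 30 in full) and 0 to 2 by strain in neutrophils (2 without C57BL/6 Ift88Orpk DBA-sorted cells). Upper-quartile scaling moved the median of all genes by about 0.1 on the log2 scale in the comparisons with neutrophils (0.24 to 0.14 for DBA-sorted cells). Without the strain and genotype block, 19 calls of named members were lost. Replicate numbers were given in accession order and pair nothing beyond the block. Members under 100 counts limit what can be detected.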
